A study of Mus musculus with 18 samples.

Results

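Ribosome biogenesis and nucleolar genes were followed through total RNA of cultured mouse neural progenitor cells, the dividing cells of the embryonic cortex that give rise to its neurons and glia. The 39 genes were taken by gene symbol from the 55573 genes in the table, a list drawn up with earlier results of these data known: 5 of RNA polymerase I transcription, 5 of the box C/D and 4 of the H/ACA small nucleolar ribonucleoproteins, 10 of small subunit and 11 of large subunit processing, and 4 further nucleolar proteins. All 39 were in the table, and all 39 passed the filter of at least 1 TPM (a transcript level corrected for length and scaled to the same total in every library) in at least 6 libraries, which 15216 genes passed. The study cultured C57BL/6 cortical progenitors, harvested them 72 h after infection and made 18 libraries, numbered 3, 4, 5, 6, 8 and 9 in each of 3 groups of 6. Mock cells carried floxed alleles of Upf2 (Upf2fl/fl) and received medium only. Upf2 Cre cells had the same genotype and received AAV9-Cre, an adeno-associated virus that carries Cre recombinase, in medium that was replaced after 14 h. Upf2 Trp53 Cre cells carried floxed alleles of both genes (Upf2fl/fl Trp53fl/fl) and received the same virus. All 3 groups shared the floxed Upf2 alleles, the strain and the culture medium. The set has no mock group of the doubly floxed line and no virus without Cre, so the Trp53 genotype cannot be told apart from the line, nor Cre from infection.

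Ribosomes are made in the nucleolus, where RNA polymerase I transcribes the ribosomal RNA precursor. Small nucleolar ribonucleoproteins guide chemical changes of that precursor, and a large processome cuts and folds it into the small subunit while other factors assemble the large subunit. Upf2 is required for nonsense-mediated decay of mRNAs with early stop codons, and Trp53 encodes p53, which free ribosomal proteins can stabilize when ribosome assembly fails. Growing progenitors make ribosomes at a high rate, and transcription factors of the Myc family drive many genes of this module through the E-box CACGTG.

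The E-box was searched on both strands, where it reads the same, in the RefSeq windows from 250 bases before to 50 after the start of each gene (GRCm38.p6). Windows were found for 34 of the 39 genes. It was in 8 of those 34 (23.5%), against 8.09% of all 27025 genes with a window. A second motif, TGATGNAA, searched on both strands, was in 1 of the 34 (2.94%), Nop14, against 4.51% of all genes. The E-box lay before the start in Imp4, Rrn3 and Nop2, which encode a small subunit processing factor, an initiation factor of RNA polymerase I and a methyltransferase of the large subunit. It lay at or after the start in Pes1, Wdr43, Tsr1, Ltv1 and Mybbp1a. The bases before the start are shown for the 3 genes with an upstream E-box, since Imp4 and Rrn3 were among the genes that changed; capitals mark CACGTG. They are chr1:34439673-34439828, chr16:13780449-13780698 and chr6:125131633-125131882, all on the plus strand, and the Imp4 window is shortened by 94 bases that belong to an exon of a neighbouring gene.
Imp4: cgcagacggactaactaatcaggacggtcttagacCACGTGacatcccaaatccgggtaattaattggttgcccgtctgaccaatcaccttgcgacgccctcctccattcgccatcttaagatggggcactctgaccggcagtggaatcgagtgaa
Rrn3: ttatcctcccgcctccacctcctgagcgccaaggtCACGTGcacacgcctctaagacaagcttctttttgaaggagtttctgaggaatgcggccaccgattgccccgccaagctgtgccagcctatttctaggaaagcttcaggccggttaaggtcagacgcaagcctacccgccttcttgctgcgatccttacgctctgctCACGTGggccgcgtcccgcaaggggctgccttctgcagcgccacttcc
Nop2: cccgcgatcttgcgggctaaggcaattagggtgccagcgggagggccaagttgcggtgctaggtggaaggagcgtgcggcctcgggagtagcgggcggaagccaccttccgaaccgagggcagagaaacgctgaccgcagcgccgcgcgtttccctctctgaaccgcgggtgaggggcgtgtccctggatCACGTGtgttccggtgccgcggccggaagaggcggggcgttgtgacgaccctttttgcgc
The first base of the motif was 121 bases before the start in Imp4, 215 and 48 before it in Rrn3, and 60 before it in Nop2. A match describes the letters of the window and says nothing of binding.

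Several libraries stood apart from their groups. Mock replicate 3 had the lowest level of its group for 34 of the 39 genes, and mock replicate 8 for the other 5. The summed level of the 39 genes was 1999 TPM in mock replicate 3, against 3950 to 5335 in the other mock libraries, 3102 to 4920 in Upf2 Cre and 4166 to 5409 in Upf2 Trp53 Cre. In Upf2 Cre, replicate 4 was highest for 23 of the genes and replicate 3 for 12, and replicate 8 was lowest for 22 and replicates 3 and 9 for 8 each. In Upf2 Trp53 Cre, replicate 5 was highest for 21 and replicate 3 lowest for 20. In Upf2 Cre replicate 3 the cytosolic ribosomal protein genes summed to 155090 TPM against 88475 to 105990 in the other 5. In Upf2 Cre replicate 6 a single gene, Gm23935, took 141092 of the 1000000 TPM. TPM hold no read totals, so the depth of the libraries is unknown; 14019 to 15210 genes per library reached 1 TPM. Upf2, whose product the virus was meant to remove, was not lower in the libraries given Cre: it had means of 11.1 ± 2.98 TPM in mock libraries, 20.2 ± 4.82 with Upf2 Cre and 33.8 ± 9.03 with Upf2 Trp53 Cre (n = 6 each, SD). A whole-gene TPM does not measure the deleted exons. Trp53 had means of 104 ± 18.2 TPM in mock libraries, 138 ± 34.98 with Upf2 Cre and 16.5 ± 1.69 with Upf2 Trp53 Cre (n = 6 each, SD). Cdkn1a, a p53 target, had means of 201 ± 77.9 TPM in mock libraries, 1135 ± 464 with Upf2 Cre and 60.4 ± 33.6 with Upf2 Trp53 Cre (n = 6 each, SD). Markers of radial glia, the progenitors of the cortex, were all tested and summed to between 3776 and 14237 TPM, whereas the sum of 8 microglial markers reached at most 1.15 TPM and that of 6 vascular markers at most 4.68 TPM in any library. Of 4 intermediate progenitor markers, 1 passed the filter. Markers of other neural types were present: 7 of the oligodendrocyte lineage summed to between 1122 and 4162 TPM, 6 of astrocytes to between 644 and 1613 TPM and 8 of neurons to between 87.4 and 204 TPM.

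**Figure D1:**
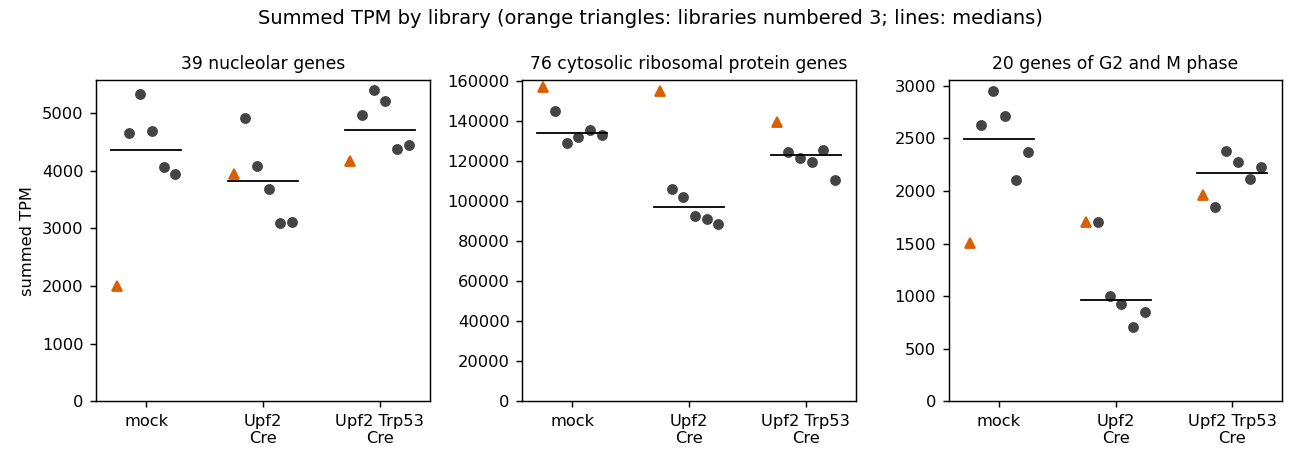
Summed TPM of the 39 nucleolar genes, of 76 cytosolic ribosomal protein genes and of 20 genes of the G2 and M phases in each of the 18 libraries, by group; lines are group medians and orange triangles are the libraries numbered 3. The nucleolar genes had medians of 4367 TPM for mock, 3815 for Upf2 Cre and 4706 for Upf2 Trp53 Cre, and mock replicate 3 lay far below its group at 1999.

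Levels of the genes in mock cells spanned from 10.4 ± 3.36 TPM for Wdr12 to 453 ± 218 TPM for Npm1 (SD, n = 6), on the length-corrected scale. Npm1, nucleophosmin, and Nhp2, Fbl, Rrp1 and Ncl were the 5 with the highest means, in that order. The spreads (mean ± SD) of neighbours in the order overlapped, as with 411 ± 144 for Nhp2 against 281 ± 88.2 for Fbl. Noc3l, Gnl3, Nop58 and Wdr75 were next to Wdr12 at the low end. Within groups the genes moved together from library to library: the median Pearson r of their deviations from the group mean was 0.63 over 741 pairs of genes and 18 libraries, and 697 pairs were positive. These pairs share the libraries and their composition.

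**Figure D2:**
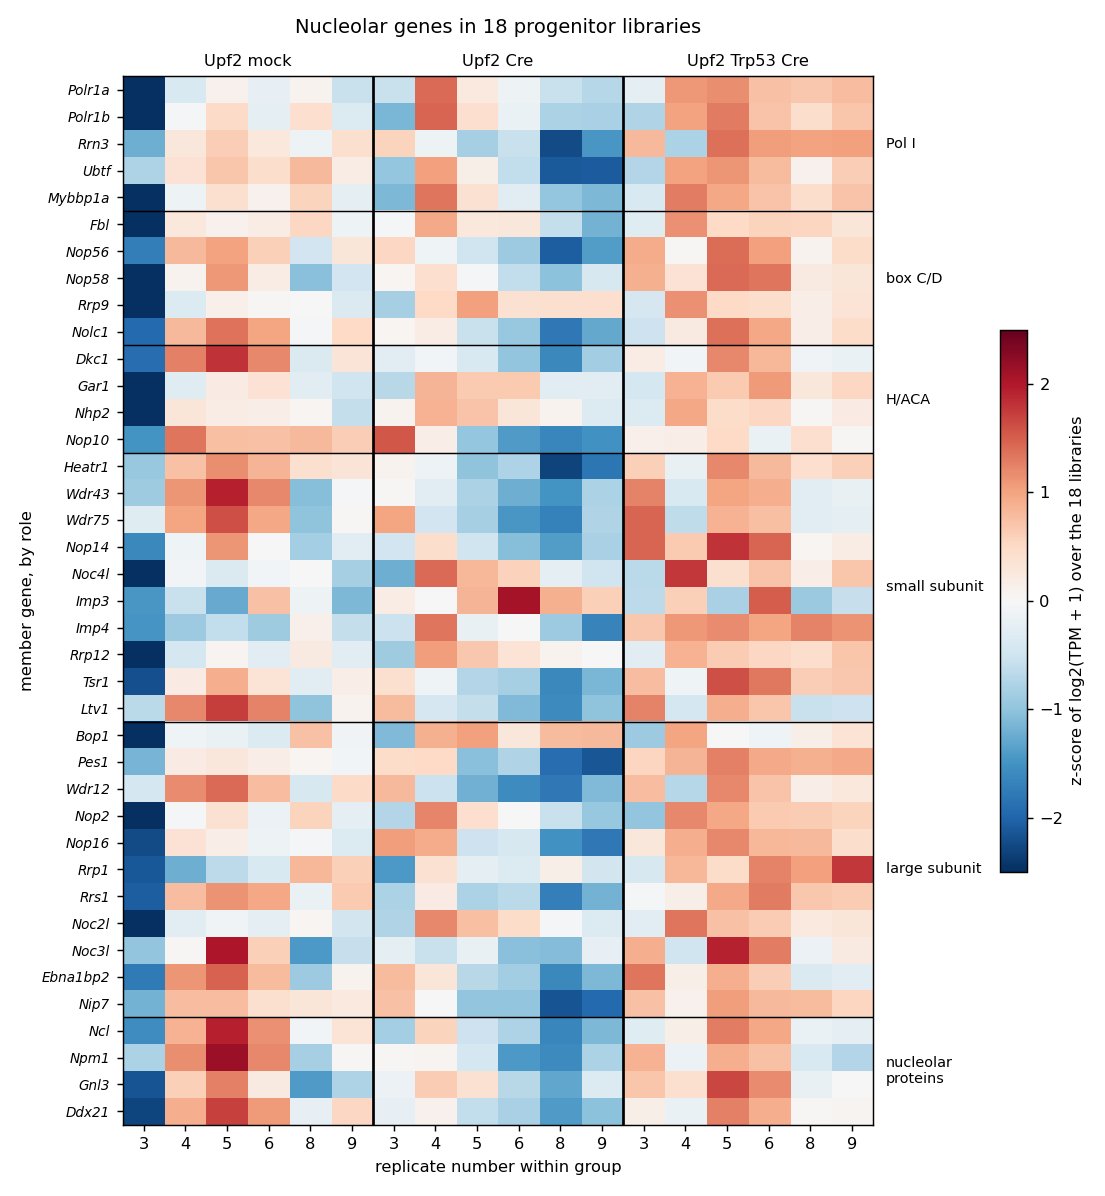
Level of each of the 39 genes (rows, by role) in each of the 18 libraries (columns, by group and replicate number), as a z-score of log2(TPM + 1) over all libraries, red for high and blue for low. Mock replicate 3 is blue for most genes, and Upf2 Cre replicates 8 and 9 are blue for most genes of the small subunit and for Pes1 and Nip7.

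The comparison of Upf2 Cre with Upf2 mock asks what differed in floxed progenitors given the Cre virus. Heatr1, Wdr12 and Nip7 fell and Imp3 rose, and the other 35 genes did not pass the test (limma on log2(TPM + 1) over all 18 libraries, Benjamini-Hochberg adjusted p with a threshold of 0.05 over all 15216 genes). Among all genes tested 24.2% fell and 16.5% rose in this comparison. Among the 39 genes 7.69% fell and 2.56% rose, so in this fit calls were fewer than the background, a difference that was not tested. At an unadjusted p under 0.05, 11 of the 39 were lower and 1 was higher, beside 4662 lower and 3153 higher of all 15216 genes. The median log2 difference of the 39 was -0.20, with 22 negative and 17 positive values, beside -0.12 over all genes; without mock replicate 5 it was -0.03, beside -0.10. In no gene did the libraries of the groups separate fully, against 5.86% of all genes. The count of genes that fell depended on single libraries: it was 14 without mock replicate 3, 9 without Upf2 Cre replicate 3, 7 without mock replicate 8, 6 without Upf2 Cre replicate 4, 2 without any one of mock replicates 4, 6 and 9, Upf2 Cre replicates 5, 6 and 9 and Upf2 Trp53 Cre replicates 6, 8 and 9, and 1 without mock replicate 5 or Upf2 Cre replicate 8. Shares of all genes in those fits are not given here, and the counts therefore cannot be read as particular to the 39 genes. With all libraries numbered 3 left out, 18 of the 39 genes fell and 4 rose, beside 33.3% and 25.5% of all genes. The share of the 39 that fell was then above that of all genes, and the share that rose was below it. Neither difference was tested. Scaling moved the split over all genes from 2506 higher and 3686 lower to 3078 and 3176 (median-ratio) and to 2982 and 3210 (quantile). With replicate number in the fit as a block, 9 of the 39 genes fell and 6 rose, and the call of Nip7 was lost. The share of all genes under the block is not given here.

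Upf2 Trp53 Cre against Upf2 mock sets the doubly floxed cells given Cre beside uninfected cells of the other line. Imp4 rose, and the other 38 genes did not pass the test, so 2.56% of the genes rose beside 10.4% of all genes tested. By limma 0 genes fell, at an adjusted or at an unadjusted p under 0.05, beside 1.09% of all genes at the adjusted threshold. At an unadjusted p under 0.05, 12 of the 39 were higher, beside 2995 higher and 724 lower of all 15216 genes. The median log2 difference was 0.32, with 32 positive and 7 negative values, beside 0.08 over all genes; without mock replicate 3 it was 0.14, beside 0.08. Libraries of Imp4 and Pes1 did not overlap between the groups and were higher in Upf2 Trp53 Cre, as for 7.08% of all genes. Leaving out mock replicate 5 gave 3 genes that rose and leaving out Upf2 Trp53 Cre replicate 3 gave 2. Shares of all genes in those fits are not given here. Without all libraries numbered 3 there were 5, beside 18.9% of all genes. With replicate number in the fit as a block, 9 of the 39 genes rose. The share of all genes under the block is not given here, so this count cannot be read as particular to the 39 genes. Median-ratio scaling left no call among the 39 genes, beside 6.4% of all genes that rose, and moved the median over all genes from 0.08 to -0.06 and the split over all genes from 1586 higher and 166 lower to 974 and 480; quantile normalization gave a median of -0.04 and a split of 1081 and 478.

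Upf2 Trp53 Cre against Upf2 Cre asks how the lines given Cre differed. Rrn3, Nop56, Heatr1, Nop14, Imp4, Tsr1, Pes1, Rrs1 and Nip7 were higher in Upf2 Trp53 Cre, 9 of 39 (23.1%), beside 11.8% of all genes tested. By limma 0 genes were lower, at an adjusted or an unadjusted p under 0.05, beside 2.46% of all genes at the adjusted threshold. At an unadjusted p under 0.05, 18 of the 39 were higher, beside 4315 higher and 947 lower of all 15216 genes. The median log2 difference was 0.49, with 37 positive and 2 negative values, beside 0.25 over all genes. Pes1 was the gene whose groups did not overlap, as for 1.87% of all genes. These calls depended on the scaling: median-ratio scaling left 0 genes higher and quantile normalization left Pes1 alone, beside 2% and 3.54% of all genes, and they moved the median over all genes to 0.02 and 0.03, that of the 39 genes to 0.22 and 0.34, and the split over all genes from 1791 higher and 374 lower to 305 and 727 and to 539 and 592. They depended on single libraries as well: 15 genes were higher without Upf2 Cre replicate 3, 5 without mock replicate 4 or 9, 4 without Upf2 Trp53 Cre replicate 8 or 9, 3 without Upf2 Trp53 Cre replicate 3, 2 without Upf2 Cre replicate 5 or 6 or Upf2 Trp53 Cre replicate 6, 1 without Upf2 Trp53 Cre replicate 5, and 0 without Upf2 Cre replicate 8 or 9. Shares of all genes in those fits are not given here. Without all libraries numbered 3 there were 17, beside 28% of all genes. With median-ratio scaling as well, 9 were higher and 2 lower. With centring within bins of transcript GC content instead of that scaling, 10 were higher. Shares of all genes in those combined fits are not given here. Pes1 and Heatr1 passed in 26 and 24 of 30 alternatives, and the other 7 in 12 to 21. With replicate number in the fit as a block, 11 of the 39 genes were higher, and the share of all genes under the block is not given here. The comparisons share their libraries and are not independent of each other. In bulk RNA, fewer cells of a type and less RNA per cell cannot be told apart.

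**Figure D3:**
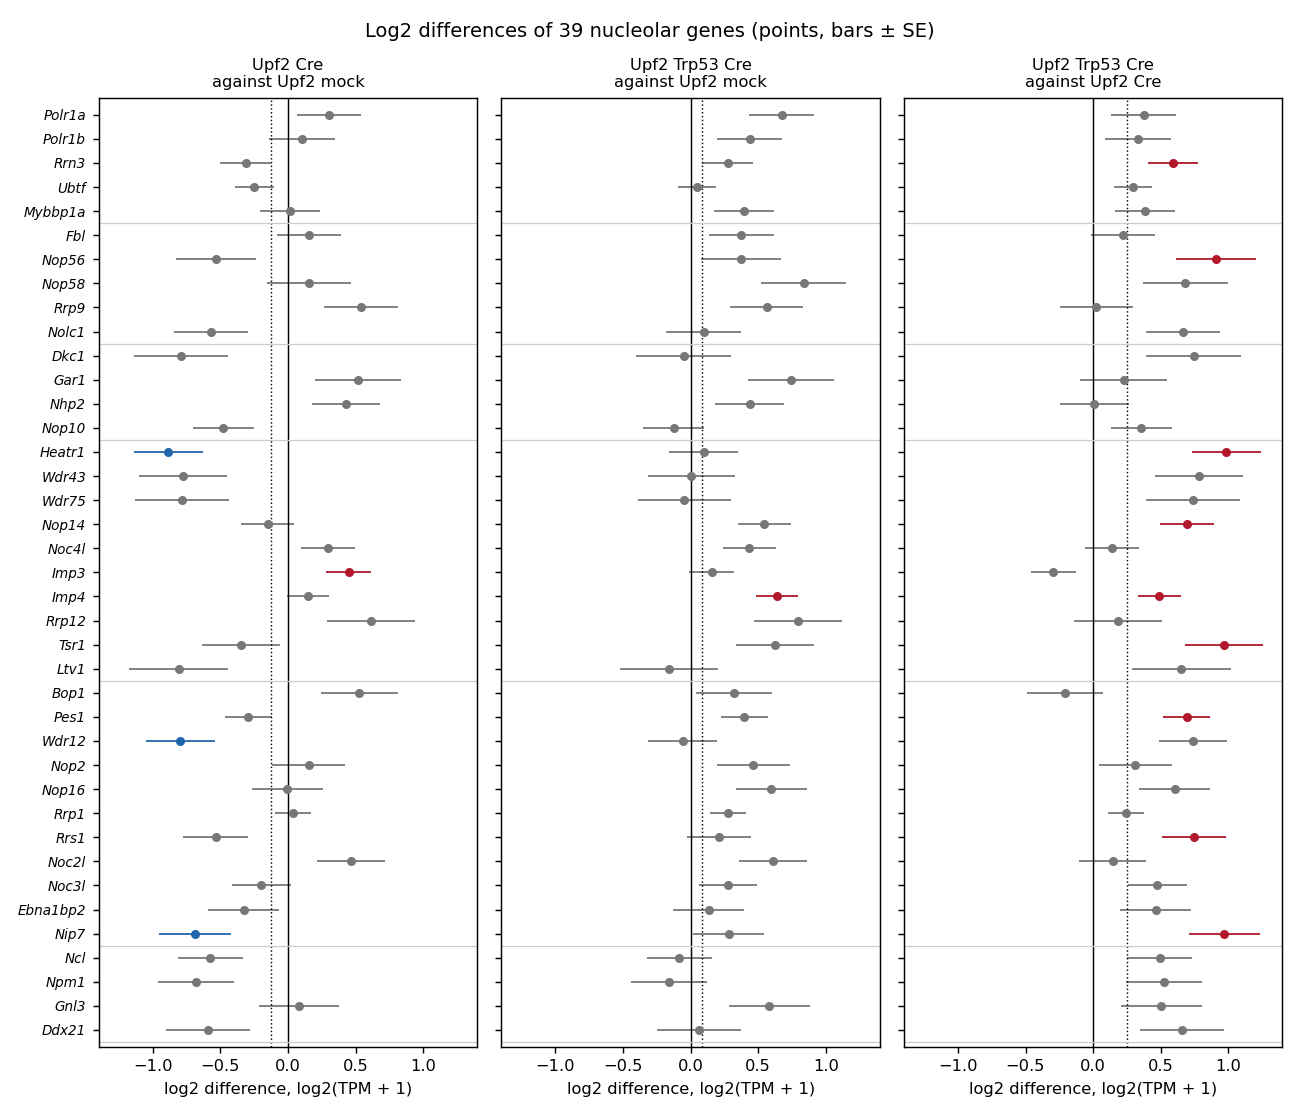
Log2 differences of the 39 genes, by role, with bars of ± 1 SE, for Upf2 Cre against mock, Upf2 Trp53 Cre against mock and Upf2 Trp53 Cre against Upf2 Cre. Red marks an adjusted p under 0.05 with a higher level in the first-named group and blue a lower one, 4, 1 and 9 genes in all; the dotted lines are the medians over all tested genes, -0.12, 0.08 and 0.25.

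The 5 genes of RNA polymerase I transcription had 1 call in all, Rrn3 between the Cre groups, where 11.8% of all genes were higher. Polr1a (mm10 chromosome 6, 71909053 to 71984935, plus strand), the catalytic subunit, ranged from 12.4 to 38.3 TPM in mock (median 33.3), from 28.5 to 60.8 in Upf2 Cre (median 32.7) and from 33.9 to 55.5 in Upf2 Trp53 Cre (median 47.99). Apart from mock replicate 3 and Upf2 Cre replicate 4 the mock and Upf2 Cre libraries lay close together, and the groups overlapped. The log2 difference of Polr1a in Upf2 Cre against mock was 0.30 ± 0.24 (SE, limma adjusted p = 0.315), in Upf2 Trp53 Cre against mock 0.68 ± 0.24 (adjusted p = 0.0774) and 0.37 ± 0.24 between the Cre groups (adjusted p = 0.265). Rrn3 (mm10 chromosome 16, 13780708 to 13814839, plus strand), which carries the polymerase to its promoter, ranged from 48.2 to 79.6 TPM in mock (median 72.4), from 36.4 to 78.4 in Upf2 Cre (median 55.7) and from 54.1 to 97.9 in Upf2 Trp53 Cre (median 88.7). The lowest levels were those of Upf2 Cre replicates 8 and 9. Rrn3 was 0.59 higher (log2) in Upf2 Trp53 Cre than in Upf2 Cre (adjusted p = 0.0412), with values of -0.31 and 0.27 for the Cre groups against mock that did not pass (adjusted p = 0.176 and 0.387). Mybbp1a, a nucleolar protein that binds Myb and the gene of this class with the highest mock level, ranged from 82.1 to 210.1 TPM in mock (median 178), from 128 to 264 in Upf2 Cre (median 149.8) and from 159.7 to 259 in Upf2 Trp53 Cre (median 220.2). The ranges of the 3 groups overlapped. Polr1b, a further large subunit of the polymerase, had log2 differences of 0.10, 0.44 and 0.33 in the 3 comparisons in the order given above, and Ubtf, which binds ribosomal DNA, had -0.25, 0.05 and 0.29. None of these passed.

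The 5 proteins of the box C/D particles, which guide methylation of ribosomal RNA, had 1 call, Nop56 between the Cre groups, where 11.8% of all genes were higher. Fbl (mm10 chromosome 7, 28169710 to 28179269, plus strand), fibrillarin, the methyltransferase, ranged from 106 to 349 TPM in mock (median 311), from 209 to 398 in Upf2 Cre (median 309) and from 271 to 421 in Upf2 Trp53 Cre (median 349). Its groups overlapped widely, and the log2 differences were 0.15, 0.38 and 0.22, none past the test. Nop58 (mm10 chromosome 1, 59684971 to 59719044, plus strand), a core protein of the particle, ranged from 5.28 to 37.04 TPM in mock (median 20.2), from 13.4 to 26.99 in Upf2 Cre (median 19.97) and from 24.6 to 43.4 in Upf2 Trp53 Cre (median 29.9). Mock replicate 3 held the lowest value. The log2 difference of Nop58 in Upf2 Trp53 Cre against mock was 0.84 ± 0.31 (SE, adjusted p = 0.0962). Nop56, the partner of Nop58 in the particle, had means of 96.4 ± 36.4 TPM in mock libraries, 65.7 ± 27.04 with Upf2 Cre and 119 ± 29.7 with Upf2 Trp53 Cre (n = 6 each, SD), and was 0.91 higher (log2) in Upf2 Trp53 Cre than in Upf2 Cre (adjusted p = 0.0467). Against mock its values were -0.54 for Upf2 Cre and 0.37 for Upf2 Trp53 Cre (adjusted p = 0.149 and 0.474). Nolc1, a chaperone of these particles, had log2 differences of -0.57, 0.10 and 0.67, and Rrp9, a protein of the U3 particle, had 0.54, 0.56 and 0.02. The signs of Rrp9 and Nolc1 differed in Upf2 Cre against mock, and neither passed in any comparison.

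Among the 4 proteins of the H/ACA particles, which guide pseudouridine formation, no call was made by limma at an adjusted p under 0.05; at an unadjusted p under 0.05 Dkc1 and Nop10 were lower in Upf2 Cre against mock, Gar1 was higher in Upf2 Trp53 Cre against mock and Dkc1 was higher between the Cre groups. Dkc1 (mm10 chromosome X, 75095854 to 75109777, plus strand), dyskerin, the pseudouridine synthase, ranged from 9.09 to 65.03 TPM in mock (median 38.95), from 10.7 to 24.7 in Upf2 Cre (median 18.5) and from 23.4 to 47.5 in Upf2 Trp53 Cre (median 26.4). Every Upf2 Cre library lay below the mock median, while mock replicate 3 lay below all of them. The log2 difference was -0.79 ± 0.35 (SE, adjusted p = 0.0741) for Upf2 Cre against mock and 0.74 ± 0.35 (adjusted p = 0.139) between the Cre groups. Without the libraries numbered 3 the first was -1.19 (adjusted p = 0.0023); the adjusted p ranged from 0.00165 to 0.605 over 30 alternatives. Nhp2, with the highest mock level of this class, ranged from 133 to 509.5 TPM in mock (median 479), from 411 to 619 in Upf2 Cre (median 494) and from 412 to 637 in Upf2 Trp53 Cre (median 515). Its log2 differences were 0.43, 0.44 and 0.01. Those of Gar1 were 0.52, 0.74 and 0.23, and those of Nop10 -0.48, -0.12 and 0.36.

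Small subunit processing, with 10 genes, held 2 of the 4 calls in Upf2 Cre against mock, the 1 call in Upf2 Trp53 Cre against mock and 4 of the 9 calls between the Cre groups. In Upf2 Cre against mock 10% rose and 10% fell, beside 16.5% and 24.2% of all genes. In Upf2 Trp53 Cre against mock 10% rose, beside 10.4% of all genes. Between the Cre groups 40% were higher, beside 11.8%, a difference that was not tested. Heatr1 (mm10 chromosome 13, 12395027 to 12440289, plus strand), part of the processome that binds the nascent ribosomal RNA, ranged from 12.9 to 33.9 TPM in mock (median 25.99), from 6.62 to 20.9 in Upf2 Cre (median 13.3) and from 18.4 to 34.6 in Upf2 Trp53 Cre (median 26.2). The mock and Upf2 Trp53 Cre medians were close, and the Upf2 Cre libraries lay lower, with mock replicate 3 among them. Heatr1 had means of 25.2 ± 7.18 TPM in mock libraries, 13.6 ± 5.63 with Upf2 Cre and 26.5 ± 5.34 with Upf2 Trp53 Cre (n = 6 each, SD). Against mock it fell by 0.89 in Upf2 Cre, as a log2 difference (SE 0.26, adjusted p = 0.0116) and was 0.98 ± 0.26 higher in Upf2 Trp53 Cre than in Upf2 Cre (adjusted p = 0.0197). The fall passed in 29 of 30 alternatives (adjusted p from 0.000274 to 0.122), the exception being centring within bins of transcript GC content, at -0.43. Wdr43 and Wdr75, of the same early part of the processome, had log2 differences of -0.78 and -0.78 in Upf2 Cre against mock that did not pass (adjusted p = 0.0606 and 0.0737), and 0.78 and 0.74 between the Cre groups.

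Imp3 and Imp4, which join the processome together, differed in pattern. Imp3 (mm10 chromosome 9, 56937475 to 56938398, plus strand) ranged from 89.8 to 147 TPM in mock (median 103), from 125 to 198 in Upf2 Cre (median 147) and from 101 to 175 in Upf2 Trp53 Cre (median 109). All Upf2 Cre libraries lay above the mock median, and the highest was replicate 6. Against mock Imp3 rose by 0.45 (log2) in Upf2 Cre (adjusted p = 0.0388). The call was lost without any one of mock replicates 3, 4, 5 and 9 and Upf2 Cre replicates 5, 6, 8 and 9 (without mock replicate 3, 0.40 and adjusted p = 0.067), and the adjusted p ranged from 0.00646 to 0.88 over 30 alternatives. Imp4 (mm10 chromosome 1, 34439851 to 34449356, plus strand) ranged from 21.9 to 33.03 TPM in mock (median 26.5), from 20.8 to 45.1 in Upf2 Cre (median 29.3) and from 37.99 to 44.1 in Upf2 Trp53 Cre (median 42.5). Every Upf2 Trp53 Cre library lay above every mock library. Imp4 rose by 0.64 in Upf2 Trp53 Cre against mock (SE 0.16, adjusted p = 0.00947) and was 0.49 higher there than in Upf2 Cre (adjusted p = 0.0419); the first passed in 28 of 30 alternatives and was 0.48 (adjusted p = 0.072) under median-ratio scaling. Nop14 (mm10 chromosome 5, 34638536 to 34660148, minus strand), another processome protein, ranged from 24.4 to 57.5 TPM in mock (median 38.3), from 26.2 to 46.7 in Upf2 Cre (median 33.2) and from 41.5 to 71.8 in Upf2 Trp53 Cre (median 57.1). It was 0.69 higher in Upf2 Trp53 Cre than in Upf2 Cre (adjusted p = 0.0273) and had 0.54 against mock (adjusted p = 0.0817). Tsr1, which acts late in small subunit maturation, was 0.97 higher between the Cre groups (adjusted p = 0.0323), at 85.3 ± 23.04 TPM in Upf2 Trp53 Cre and 43.8 ± 15.2 in Upf2 Cre (SD, n = 6). Ltv1, of the same late steps, had -0.81 in Upf2 Cre against mock (adjusted p = 0.0785) and 0.65 between the Cre groups (adjusted p = 0.204). Noc4l had log2 differences of 0.30, 0.44 and 0.14, and Rrp12, an export and processing factor, had 0.61, 0.80 and 0.18, none past the test.

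**Figure D4:**
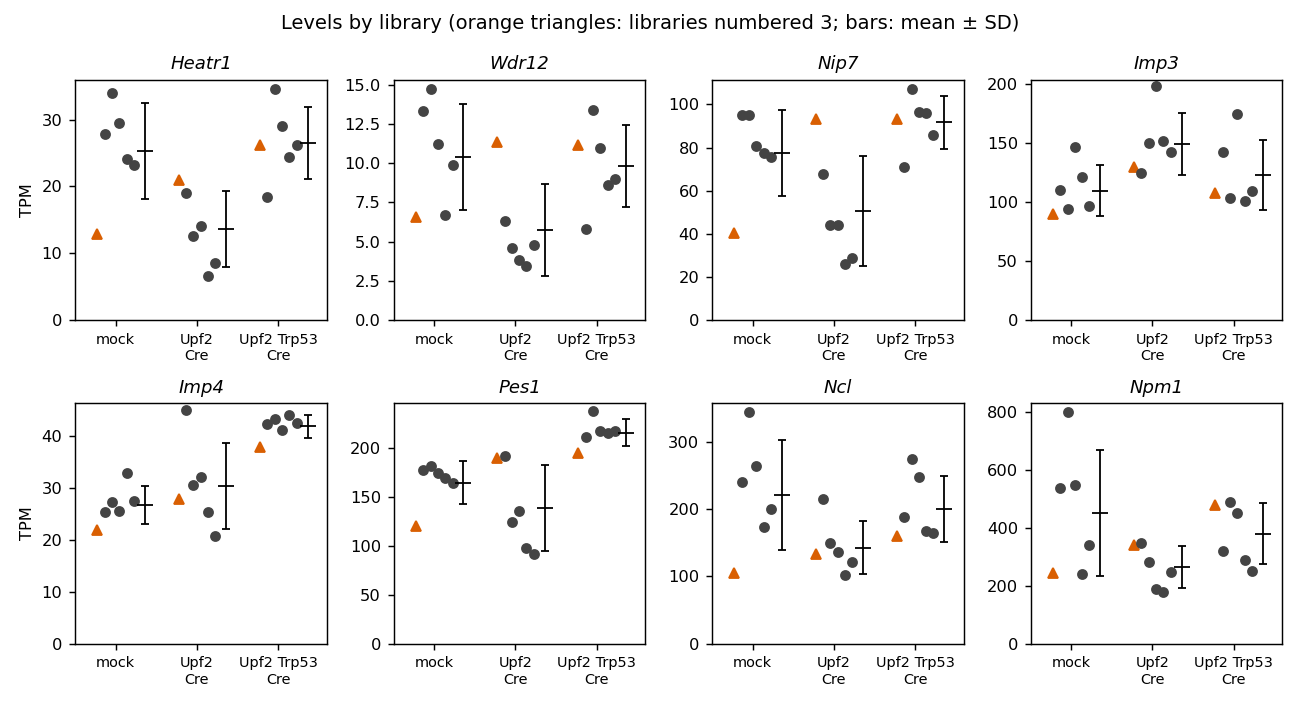
TPM of 8 genes in each library, by group (circles; orange triangles are the libraries numbered 3), with mean ± SD of 6 libraries beside them; axes start at 0. Imp4 in Upf2 Trp53 Cre (38.0 to 44.1 TPM) lay above all mock libraries (21.9 to 33.0), and Pes1 in Upf2 Trp53 Cre (195 to 239 TPM) lay above all libraries of the other groups.

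In large subunit processing 2 of 11 genes (18.2%) fell in Upf2 Cre against mock, beside 24.2% of all genes. Between the Cre groups 3 of the 11 (27.3%) were higher in Upf2 Trp53 Cre, beside 11.8% of all genes, a difference that was not tested. Pes1, Bop1 and Wdr12 form one complex that processes the large subunit RNA, and their values differed from each other. Pes1 (mm10 chromosome 11, 3963975 to 3980004, plus strand) ranged from 121 to 182 TPM in mock (median 173), from 91.6 to 192 in Upf2 Cre (median 131) and from 195 to 239 in Upf2 Trp53 Cre (median 217). Upf2 Trp53 Cre lay above all other libraries. Pes1 was 0.69 higher there than in Upf2 Cre on the log2 scale (SE 0.18, adjusted p = 0.0184), a call kept in 26 of 30 alternatives. It was lost without Upf2 Cre replicate 8 or 9, under median-ratio scaling (0.41, adjusted p = 0.139) and with GC centring (0.36, adjusted p = 0.134). Against mock the 0.40 of Pes1 did not pass (adjusted p = 0.165). Wdr12 (mm10 chromosome 1, 60069785 to 60098645, minus strand) ranged from 6.59 to 14.7 TPM in mock (median 10.6), from 3.45 to 11.4 in Upf2 Cre (median 4.71) and from 5.79 to 13.4 in Upf2 Trp53 Cre (median 9.99). Upf2 Cre replicate 3 was the highest of its group and lay within the mock range. Wdr12 fell by 0.80 in Upf2 Cre against mock (SE 0.25, adjusted p = 0.0187), in 27 of 30 alternatives; leaving out mock replicate 5 or Upf2 Cre replicate 8 lost the call, as did GC centring (-0.29, adjusted p = 0.192). Bop1 (mm10 chromosome 15, 76452989 to 76477277, minus strand) ranged from 47.1 to 206 TPM in mock (median 148), from 103 to 231 in Upf2 Cre (median 212) and from 111 to 227 in Upf2 Trp53 Cre (median 160.5). Its log2 differences of 0.53, 0.32 and -0.21 did not pass (adjusted p = 0.134, 0.516 and 0.607).

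Nip7 (mm10 chromosome 8, 107056877 to 107060931, plus strand), a large subunit assembly factor, ranged from 40.4 to 95.02 TPM in mock (median 79.3), from 26.1 to 93.1 in Upf2 Cre (median 44.2) and from 70.96 to 107 in Upf2 Trp53 Cre (median 94.5). Upf2 Cre replicates 8 and 9 were lowest and Upf2 Cre replicate 3 lay close to the mock maximum. It fell by 0.69 in Upf2 Cre against mock (SE 0.26, adjusted p = 0.0433), a call that 11 of 30 alternatives kept, and was 0.97 higher in Upf2 Trp53 Cre than in Upf2 Cre (adjusted p = 0.0233). Rrs1, a large subunit assembly factor, was 0.74 higher between the Cre groups (adjusted p = 0.0425), with 106 ± 18.9 TPM in Upf2 Trp53 Cre and 63.5 ± 15.1 in Upf2 Cre. Rrp1, with the highest mock level of this class, ranged from 178 to 275 TPM in mock (median 225), from 196 to 257 in Upf2 Cre (median 233) and from 229 to 316 in Upf2 Trp53 Cre (median 279). Its 3 log2 differences were 0.03, 0.28 and 0.24. Nop2, Nop16, Noc2l, Noc3l and Ebna1bp2 made no call in any comparison: their log2 differences ran from -0.33 (Ebna1bp2) to 0.47 (Noc2l) in Upf2 Cre against mock, from 0.13 (Ebna1bp2) to 0.61 (Noc2l) in Upf2 Trp53 Cre against mock, and from 0.14 (Noc2l) to 0.60 (Nop16) between the Cre groups.

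The 4 further nucleolar proteins made no call by limma at an adjusted p under 0.05; at an unadjusted p under 0.05 Ncl and Npm1 were lower in Upf2 Cre against mock and Ddx21 was higher between the Cre groups. Npm1 (mm10 chromosome 11, 33152287 to 33163206, minus strand), nucleophosmin, an abundant chaperone of ribosome assembly, ranged from 242 to 800.1 TPM in mock (median 440.1), from 178 to 347 in Upf2 Cre (median 265) and from 253 to 489 in Upf2 Trp53 Cre (median 387). Mock replicates 5, 6 and 4 lay above every library of both Cre groups, with replicate 5 far above the rest, and the other 3 mock libraries lay within the range of the Cre libraries. The log2 difference of Npm1 in Upf2 Cre against mock was -0.68 ± 0.28 (SE, adjusted p = 0.0577), and without the libraries numbered 3 it was -0.91 (adjusted p = 0.0111); over 30 alternatives the adjusted p ran from 0.0111 to 0.645. Ncl (mm10 chromosome 1, 86344719 to 86359400, minus strand), nucleolin, ranged from 105 to 345 TPM in mock (median 221), from 102 to 215 in Upf2 Cre (median 135) and from 161 to 275 in Upf2 Trp53 Cre (median 178). Its log2 difference in Upf2 Cre against mock was -0.57 ± 0.24 (adjusted p = 0.0616), and -0.76 without the libraries numbered 3 (adjusted p = 0.00639; from 0.00639 to 0.969 over the alternatives). Both genes had smaller values in Upf2 Trp53 Cre against mock, -0.16 and -0.08. Gnl3, nucleostemin, a GTPase of proliferating stem cells, ranged from 6.77 to 30.1 TPM in mock (median 16.04), from 10.01 to 23.2 in Upf2 Cre (median 15.9) and from 16.3 to 35.6 in Upf2 Trp53 Cre (median 22.2). All 3 groups overlapped, with log2 differences of 0.08, 0.58 and 0.51. Ddx21, an RNA helicase of the nucleolus, had -0.59, 0.06 and 0.65 (adjusted p = 0.128, 0.93 and 0.142).

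The log2 differences went with the base composition of the transcripts, and in Upf2 Cre against mock so did their sign. In Upf2 Trp53 Cre against mock and between the Cre groups most values were positive, 32 and 37 of the 39. Across the 39 genes, Pearson's r between log2 difference and transcript GC content was 0.72 in Upf2 Cre against mock, 0.42 in Upf2 Trp53 Cre against mock and -0.70 between the Cre groups, beside 0.54, 0.35 and -0.39 across 15208 genes; genes are not independent replicates, and the values are a description. The 13 genes of lowest GC content (40.4% to 46.4%), which include Wdr12, Npm1, Ncl, Dkc1, Wdr43 and Nip7, had a median of -0.68 in Upf2 Cre against mock, beside -0.53 for all genes of that range. Of these 13, 11 had negative values and 2, Nop58 and Gnl3, positive ones. The 13 of highest GC content (54.1% to 59.8%), which include Imp3, Bop1, Fbl and Nhp2, had a median of 0.43, beside 0.43 for all genes of that range. Here 11 had positive values and 2, Ubtf and Rrs1, negative ones. The 13 between them had -0.29, beside -0.21. In Upf2 Trp53 Cre against mock the medians from low to high GC content were 0.01, 0.40 and 0.44, beside -0.14, 0.07 and 0.29 for all genes. Between the Cre groups they were 0.65, 0.60 and 0.18, beside 0.42, 0.33 and -0.09. The libraries differed in this respect within groups too: the correlation of a library's deviation from the mean with GC content, across tested genes, ran from -0.63 to 0.26 in mock, from -0.32 to 0.56 in Upf2 Cre and from -0.45 to 0.49 in Upf2 Trp53 Cre.

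With each library centred within 20 bins of GC content, an alternative added after seeing the data, the 4 genes called in Upf2 Cre against mock were not called. In their place Imp4 rose and Ubtf, Rrp1 and Rrs1 fell, beside 14.5% and 14.8% of 15208 genes. In Upf2 Trp53 Cre against mock Imp4 was kept (0.62, adjusted p = 0.0238), and Nop58 and Nop14 joined it, beside 7.82% of genes. Between the Cre groups 0 of the 39 genes passed by limma, beside 2.52% of genes higher and 3.49% lower. With the libraries numbered 3 left out as well, 10 of the 39 were higher there, and the share of all genes is not given here. The part of base composition in the differences was not tested.

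**Figure D5:**
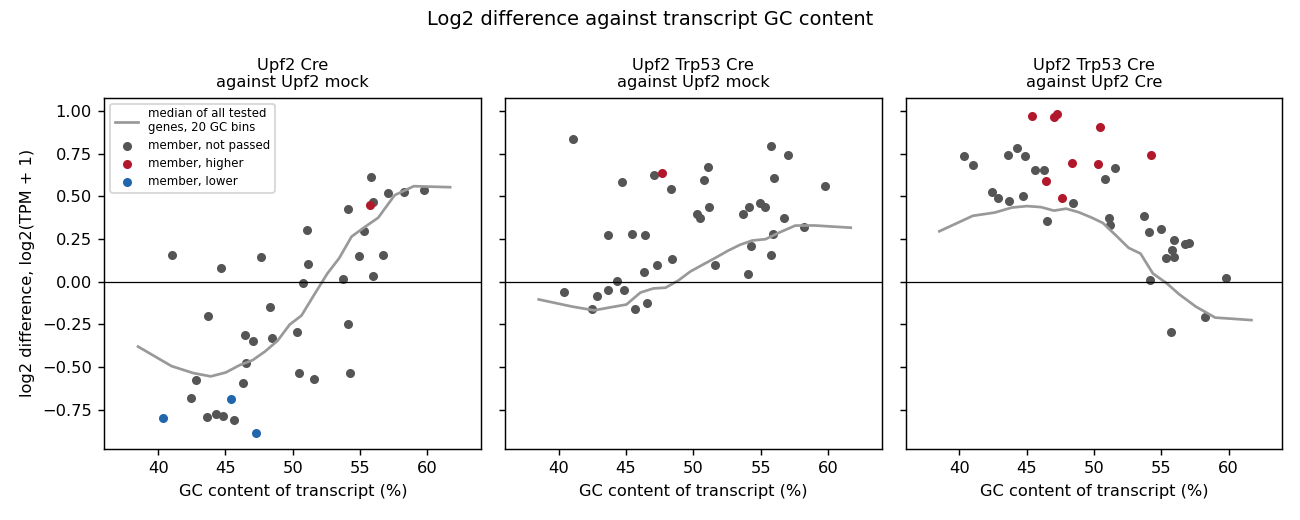
Log2 difference of each of the 39 genes (points; red and blue passed the test, higher and lower) against the GC content of its transcript (%), for the 3 comparisons; the line is the median of all tested genes in 20 bins of GC content. Across the 39 genes Pearson's r was 0.72 in Upf2 Cre against mock, 0.42 in Upf2 Trp53 Cre against mock and -0.70 between the Cre groups.

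Other genes of ribosome production were set beside the 39. Of 122 further ribosome biogenesis genes tested, in Upf2 Cre against mock 15 rose and 36 fell, with a median log2 difference of -0.39. These were 12.3% and 29.5%, beside 16.5% and 24.2% of all genes. In Upf2 Trp53 Cre against mock 12 rose (9.84%, beside 10.4% of all genes), median 0.10. Between the Cre groups 19 were higher in Upf2 Trp53 Cre (15.6%, beside 11.8%), median 0.53. Under median-ratio scaling 4 were higher there, beside 2% of all genes. These values depended on the processing. In Upf2 Cre against mock 8 rose and 18 fell with GC centring, median -0.14, beside 14.5% and 14.8% of all genes. Without the libraries numbered 3, 17 rose and 71 fell, median -0.59, beside 25.5% and 33.3% of all genes. In Upf2 Trp53 Cre against mock 4 rose and 1 fell under median-ratio scaling, where the sign of the median turned (-0.06). There 6 rose and 1 fell with GC centring, and 20 rose and 2 fell without the libraries numbered 3. Of all genes 6.4%, 7.82% and 18.9% rose in these 3 fits. Between the Cre groups 5 were higher with quantile normalization, 4 with GC centring and 56 without those libraries, beside 3.54%, 2.52% and 28% of all genes. In Upf2 Cre against mock Polr1d, a subunit shared by RNA polymerases I and III, fell by 1.07 in log2 units (adjusted p = 0.00174). Gnl3l, a relative of nucleostemin, fell by 0.84 (adjusted p = 0.00193) and Las1l, which cuts the spacer of the large subunit precursor, fell by 0.79 (adjusted p = 0.00282). Exosc5, a subunit of the RNA exosome, rose by 1.04 (adjusted p = 0.000546), Rrp7a, a small subunit factor, by 0.80 (adjusted p = 0.00166) and Surf6, a large subunit factor, by 0.76 (adjusted p = 0.00146). Those 6 calls held under median-ratio scaling, quantile normalization, GC centring and without the libraries numbered 3.

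Surf6 rose by 1.17 in Upf2 Trp53 Cre against mock (adjusted p = 2.32e-05), from 24.4 ± 3.36 to 55.8 ± 4.36 TPM. Taf1a, a subunit of the selectivity factor of RNA polymerase I, rose by 1.504 (adjusted p = 0.000917) and Rrp36, a small subunit factor, by 0.68 (adjusted p = 0.00197). Between the Cre groups Utp4 was 1.02 higher in Upf2 Trp53 Cre (adjusted p = 0.0119), Ddx47 was 1.13 higher (adjusted p = 0.0135) and Las1l was 0.77 higher (adjusted p = 0.0119); Utp4 belongs to the small subunit processome, as the nucleolar genes Heatr1, Wdr43 and Wdr75 do. With GC centring the calls of Rrp36 (0.37, adjusted p = 0.201) and of Las1l between the Cre groups (0.40, adjusted p = 0.0567) were lost; the other 4 held there, and all 6 held under median-ratio scaling, quantile normalization and without the libraries numbered 3.

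Structural proteins of the ribosome had medians further below 0 than the nucleolar genes in Upf2 Cre against mock, a difference that was not tested. Over all genes tested 24.2% fell and 16.5% rose there, 10.4% rose in Upf2 Trp53 Cre against mock and 11.8% were higher between the Cre groups. In Upf2 Cre against mock 49 of 76 cytosolic ribosomal protein genes fell and 2 rose, with a median of -0.97. Of 77 mitochondrial ones 36 fell and 8 rose, with a median of -0.54. Between the Cre groups 18 and 17 of them were higher, with medians of 0.62 and 0.48; under median-ratio scaling 1 and 0 were higher and 3 and 3 lower. Rpl11, which with Rpl5 can bind the p53 inhibitor Mdm2, fell by 1.35 in Upf2 Cre against mock (adjusted p = 0.00192), and Rpl5 fell by 1.49 (adjusted p = 0.018). Mdm2 rose by 0.73 (adjusted p = 0.0139). Genes of the G2 and M phases, which mark dividing cells, moved further: 19 of 20 fell in Upf2 Cre against mock with a median of -1.14, and 15 of 20 were higher between the Cre groups with a median of 1.08. Of 10 radial glia markers 6 fell in Upf2 Cre against mock, as did 4 of 6 astrocyte markers (median -0.998); of 6 tested neuron markers 1 rose and 1 fell there, and 3 rose in Upf2 Trp53 Cre against mock. Among 6 tested oligodendrocyte lineage markers Upf2 Cre against mock had 1 call in each direction, with none in the other comparisons. The part of dividing cells and of these cell types in the differences of the nucleolar genes was not tested. Myc, whose product binds the E-box, had means of 74.3 ± 33.3 TPM in mock libraries, 70.1 ± 16.9 with Upf2 Cre and 80.7 ± 12.5 with Upf2 Trp53 Cre (n = 6 each, SD). Its log2 differences were 0.09, 0.31 and 0.22 (adjusted p = 0.844, 0.594 and 0.631). Mycn, its relative, had log2 differences of 0.00, 0.72 and 0.72 that did not pass (adjusted p = 0.999, 0.206 and 0.145; without the libraries numbered 3 the second was 0.81, adjusted p = 0.0325), and averaged 2.55 ± 2.44 TPM in mock. Of the 9 nucleolar genes higher in Upf2 Trp53 Cre than in Upf2 Cre, 8 had a promoter window and 4 of these (Rrn3, Imp4, Tsr1 and Pes1) held the E-box. Of 26 others with a window 4 held it. Those 9 were picked from these same data, and their calls depended on the scaling. Any part of the E-box or of Myc in their levels was not tested.

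The 5 genes outside the list whose levels followed the mean z-score of the 39 most closely over the 18 libraries were Nol12 (Pearson r = 0.971), Kpnb1 (0.968), H2-Q7 (0.964), Anp32b (0.956) and Zmynd19 (0.956). These values share the libraries and their composition and are a description.

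Several loci limit how far reads can be assigned. Genes for small nucleolar RNAs lie inside 7 of the 39 genes, 21 in all, among them 5 in Nop56, 4 in Nop58 and 3 each in Gnl3, Ncl and Wdr43; 11 of the 21 were listed at 0 in every library, and the highest mean was 12.01 TPM, for Gm22858 in Wdr43. Pseudogenes with a match of at least 90% identity over at least 200 bases, 31 in number, were found for 13 of the genes. They held 10.2% of the summed TPM of gene and copies for Fbl, 9.98% for Npm1, which has 8 copies, and 4.40% for Nop56. How reads shared between a gene and its copies were assigned is not given in the sources used here. These shares therefore set no bound on the error in the levels of the 13 genes. Exons on the opposite strand overlap those of 16 genes, from 5 bases (Nop56 and Idh3b) to 1240 bases (Tsr1 and Srr), and whether the counting used the strand of the stranded libraries is not given in the sources used here.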

How the data were processed

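Total RNA of 18 cultures was sequenced by the study from libraries of the TruSeq Stranded Total RNA type (Illumina), from RNA of integrity number 9.0 or more, per the labels' protocols. Reads were aligned with STAR to mm10, per the submitters' processing notes; versions, the quantifier and the annotation are not given in the sources used here. The deposited table, made by the authors, holds abundances in TPM for 55573 genes; each library sums to 1000000, so values are shares of a total, and depth, counting intervals and detection limits are unknown. IDs were matched to GENCODE M21 (55480 matched without version, 55180 with it), and 27 names that had become dates were restored by ID. Coordinates are those of GENCODE M21 on mm10.

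Groups and replicate numbers are those of the labels, which call the libraries biological replicates; separate animals are not stated, so p-values measure the spread between cultures. Values were taken as log2(TPM + 1), so that differences of low genes are understated. The 15216 genes that reached 1 TPM in 6 or more libraries were fitted with limma 3.58.1 (R 4.3.3) with a mean-variance trend and 3 group means over the 18 libraries. P-values were adjusted by Benjamini and Hochberg over all genes tested, with a threshold of 0.05, and differences have standard errors (SE) from the fit. The method was tested on simulated data. GC content is that of the longest coding transcript. Pseudogenes were matched with BLAST 2.17.0; plots used Matplotlib 3.10.9 in Python 3.11.15.

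The 39 genes, their role classes and the other gene lists were chosen with earlier results of these data known. All 39 are given. Library ranges are given for the 4 with the smallest adjusted p in each comparison, the one with the highest mock level in each class, and Ncl, Npm1, Fbl, Polr1a, Rrn3, Dkc1, Bop1 and Gnl3. Of the other biogenesis genes, the 3 with the smallest adjusted p per comparison and direction are named. The alternatives were median-ratio scaling, quantile normalization, a pseudocount of 0.1, a filter at a mean of 5 TPM or none, no trend, a block for replicate number, the compared groups only, leaving out each library in turn and leaving out the libraries numbered 3. GC-bin centring, alone or without the libraries numbered 3, and median-ratio scaling without those libraries were added after seeing the data.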

Additional observations from a re-analysis of the deposited data

Results flagged for a closer look

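In 19 of 117 combinations of a gene and a group, 1 library lay far from the other 5, its gap to the nearest of them, as a share of the group's range, being above Dixon's critical value; chance gives about 1 in 20 such cases, and cases in 1 library are not independent. Mock replicate 3 was the lowest of its group in 13 of them. Among genes of RNA polymerase I it was at 12.4 TPM for Polr1a, 12.7 for Polr1b and 82.1 for Mybbp1a. Among the particle proteins it was at 106 for Fbl, 16.8 for Rrp9, 133 for Nhp2 and 117 for Nop10. In subunit processing it was at 6.09 for Rrp12, 121 for Pes1, 42.3 for Nop2, 49.9 for Nop16, 45.0 for Noc2l and 40.4 for Nip7. Upf2 Cre replicate 3 was the highest of its group for Wdr75 at 26.5 TPM, for Ltv1 at 37.2 and for Wdr12 at 11.4. The other cases were Polr1a in Upf2 Cre replicate 4, highest at 60.8 TPM, Imp3 in Upf2 Cre replicate 6, highest at 198, and Rrn3 in Upf2 Trp53 Cre replicate 4, lowest at 54.1.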

How the results depend on the processing

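Over the alternatives the median log2 difference of the 39 genes ran from -0.30 to -0.03 in Upf2 Cre against mock, from -0.02 to 0.42 in Upf2 Trp53 Cre against mock and from 0.22 to 0.61 between the Cre groups. Each shift was smaller than the SD between libraries of the genes' median log2 level (0.45, 0.38 and 0.28). That SD is of single libraries and is wider than the spread of a difference between group means, so it does not show the shifts to be small. The second median was near 0 without the libraries numbered 3 under GC centring (-0.02) or median-ratio scaling (0.003). In Upf2 Cre against mock, genes that rose (1 in the report) were 0 with no filter on low values or with only the compared groups in the fit, 4 without the libraries numbered 3, 4 with GC centring as well and 5 with median-ratio scaling as well; leaving out each library in turn gave 0 to 3. Genes that fell (3 in the report) were 18 without the libraries numbered 3, 15 with GC centring as well and 18 with median-ratio scaling as well; leaving out each library in turn gave 1 to 14. In Upf2 Trp53 Cre against mock, genes that rose (1 in the report) were 0 under median-ratio scaling with or without the libraries numbered 3, 2 with the compared groups only, 5 without the libraries numbered 3, 3 with GC centring and 6 with both; leaving out each library gave 1 to 3. Genes that fell were 1 without the libraries numbered 3 under GC centring (Bop1) or median-ratio scaling (Nop10), and 0 on leaving out each library. Between the Cre groups, genes that were higher (9 in the report) were 5 with no filter, 0 with median-ratio scaling and 1 with quantile normalization. They were 0 with GC centring and 17 without the libraries numbered 3. Without those libraries they were 10 with GC centring as well and 9 with median-ratio scaling as well. Of these, 6 and 7 were among the 9 in the report. Leaving out each library gave 0 to 15. Genes that were lower were 2 (Imp3 and Bop1) under median-ratio scaling without the libraries numbered 3, and 0 on leaving out each library. Calls over all genes moved with the alternatives too, and whether these counts are particular to the 39 genes was not tested.

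The labels do not say what a replicate number shares. Deviations of same-numbered libraries correlated from -0.17 to 0.74; 15 of 18 were positive and 14 were over 0.1, and 8 of 18 libraries correlated best with their own number. The main fit takes the libraries as unpaired because the labels name no shared unit. Whether same-numbered libraries share a batch or a culture day is unknown. The replicate block moved the genes that rose from 1 to 6 and those that fell from 3 to 9 in Upf2 Cre against mock. Genes that fell then included Dkc1, Wdr43, Wdr75, Ltv1, Rrs1, Ncl and Npm1 and no longer Nip7. It moved those that rose from 1 to 9 in Upf2 Trp53 Cre against mock, and those higher between the Cre groups from 9 to 11. Shares of all genes under the block are not given here.

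Of 3510 values of single genes under alternatives, 3036 kept their direction and side of the threshold, 148 lost a call, 148 gained one, 170 turned sign without passing under either setting, and 8 turned sign and passed under the alternative. Those 8 were, with GC centring and without the libraries numbered 3, in Upf2 Cre against mock Fbl (-0.58), Rrp9 (-0.35), Bop1 (-0.29), Nop2 (-0.44), Rrp1 (-0.46) and Noc3l (0.36) and in Upf2 Trp53 Cre against mock Bop1 (-0.27), and with GC centring alone Rrp1 in Upf2 Cre against mock (-0.35). GC centring turned the sign of 15, 10 and 3 of the 39 genes in the 3 comparisons, and of 14, 16 and 2 without the libraries numbered 3. The cause was not tested. Depth is unknown, so the lowest levels cannot be given a detection limit.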
